A study of Mus musculus with 18 samples.

Results

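The 55 genes described here encode the machinery with which a cell divides its chromosomes and the checkpoint that times it, in mouse bone marrow mesenchymal stem cells (MSCs). They were taken from the 27179 genes of the deposited table by their symbol, and all 55 had a mean normalized count of at least 10 over the 18 libraries, the limit that left 14353 genes to test. There were 3 groups of 6 RNA-seq libraries (young, old and rejuvenated old MSCs), all of C57BL6 genotype and grown for 7 days. Young MSCs came from male mice of 6 weeks and old MSCs from male mice of 18 to 24 months, and neither was treated. Rejuvenated old MSCs were old MSCs, 100000 per well, kept across a Transwell membrane with 0.4 µm pores from young MSCs, through which secreted factors pass and cells do not, and values given as after co-culture are theirs. The study expanded the cells in serum and used passages 2 to 5, and a control of old MSCs facing other old MSCs was not used here, so the presence of a second cell layer and the age of its donors cannot be told apart. The labels call the libraries biological replicates without saying whether they came from separate mice, so p-values measure the spread between these libraries only.

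In a dividing cell, cyclin B and its kinase Cdk1 start mitosis, condensin compacts the chromosomes, and kinetochores attach them to the microtubules of the spindle, on which kinesin motors act. The spindle assembly checkpoint holds the anaphase-promoting complex (APC/C) inactive until every chromosome is attached. The APC/C with Cdc20 then marks securin and cyclin B for destruction, separase cuts the cohesin that holds sister chromatids together, and cytokinesis follows. Most of these genes are transcribed late in the cell cycle, when MuvB-containing complexes and Foxm1 act at promoters with a CHR element (cell cycle genes homology region) and CCAAT boxes, so in bulk RNA their level follows the number of dividing cells as well as the RNA in each, and fewer cells of a type and less RNA per cell cannot be told apart.

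The libraries held 22936251 to 29559194 reads on genes. Of the 10 stromal marker genes none was at 0 throughout a group, and their summed normalized count was 155812 to 169064 in young MSCs, 338001 to 356597 in old MSCs and 341137 to 383021 after co-culture. These genes went both ways, with 4 higher and 6 lower in young than in old MSCs (log2 fold changes from -5.48 to 6.70, median -0.30) and 3 higher and 4 lower after co-culture (-0.41 to 1.07), so the sum does not stand for each of them. The 10 macrophage markers, Ptprc (CD45) and Lyz2 among them, summed to 922 to 1043 in young MSCs, 14195 to 17714 in old MSCs and 13948 to 17024 after co-culture, with 2 of them at 0 in every young library. All 10 were lower in young than in old MSCs, and between rejuvenated old and old MSCs 1 was higher and 1 lower. The 8 erythroid markers summed to 16.9 to 31.9 in young MSCs, 721 to 849 in old MSCs and 592 to 709 after co-culture, nearly all of it from Epor, with Hba-a1, Hbb-bs and Hbb-b1 at 0 in every library. The 7 neutrophil markers summed to 30.2 to 53.3, 214 to 249 and 119 to 169, mostly from Camp, the 1 gene of the list that was tested, which was lower after co-culture by limma (-0.64), and S100a9, Mpo and Ngp were at 0 in every old and rejuvenated old library. The 6 haematopoietic progenitor markers summed to 6794 to 7197, 217 to 274 and 230.03 to 561, nearly all from Cd34 in young MSCs and mostly from Spi1 in old MSCs. The 7 endothelial and 8 lymphoid markers summed to at most 212 and 18.3 in any library. Rejuvenated old library 1 stood apart from the other 5 of its group. Its count of Cd34, which ran from 6787 to 7191 in young MSCs, was 402, against 24.2 to 41.9 in the other 5 and 19.4 to 28.0 in old MSCs. Over the 37 genes with at least 200 counts in every young library and a median of at most 2 in old MSCs, it held 2.19% of the young level, against 0.0724% to 0.162% in the other rejuvenated old libraries. Counts of calls by role and by pathway list after co-culture are therefore given with and without this library, and those with 1 value were the same without it. Of the stromal markers 3 and not 4 were lower without it.

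After co-culture the mRNA of 26 mitotic genes was higher than in old MSCs and that of none was lower. Ndc80, Nusap1, Ube2c, Cdk1 and Espl1 changed most, by 0.40 to 0.46 on the log2 scale. By limma on log2(normalized count + 1), 26 of the 55 were higher at an adjusted p under 0.05 and 0 were lower, where 21.0% of all genes tested were called higher and 20.6% lower. At an unadjusted p under 0.05, 31 were higher and 0 lower, and on recovered reads edgeR's quasi-likelihood test called 25 higher and 0 lower, DESeq2 26 and 0. The shares of all genes above belong to the adjusted limma calls only, and none is given for these other counts. The log2 fold changes ran from -0.01 to 0.46 with a median of 0.21, against 0.01 over all genes, and lay above 0 for 52 members and below for 3. Without rejuvenated old library 1, 19 members were called higher and 0 lower with a median of 0.17, and 49 fold changes lay above 0. All 19 were among the 26, and the calls lost were those of Top2a, Ttk, Sgo1, Cenpf, Kif4, Racgap1 and Ncapd2.

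Young MSCs differed from old MSCs by more and in both directions. Of the 55 genes, 15 were higher in young than in old MSCs and 29 were lower, where 41.6% of all genes were called higher and 44.1% lower. The log2 fold changes ran from -1.31 to 1.37 (median -0.23, against -0.02 over all genes). Their median absolute value was 0.42, below the 0.60 of all genes. The macrophage, erythroid, neutrophil and progenitor markers, whose sums differed between the same groups as given above, moved with this comparison, and the neutrophil marker Camp with that of rejuvenated old and old MSCs. Their part in these results was not tested. Against rejuvenated old MSCs, 9 members were higher in young MSCs and 36 lower (41.5% and 44.1% of all genes), with a median of -0.52, and without rejuvenated old library 1 the counts were 13 and 36. Counts by role hold 2 to 11 genes each and are to be read against the shares of all genes above. The comparisons of rejuvenated old and of young with old MSCs share the 6 old libraries, and those of young MSCs with old and with rejuvenated old MSCs share the 6 young ones, so they are not independent and are given side by side. The median level was lowest in young MSCs, intermediate in old MSCs and highest after co-culture for 35 of the 55 genes, and that of rejuvenated old MSCs lay between the other groups for 14, as a description with no test.

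**Figure D1:**
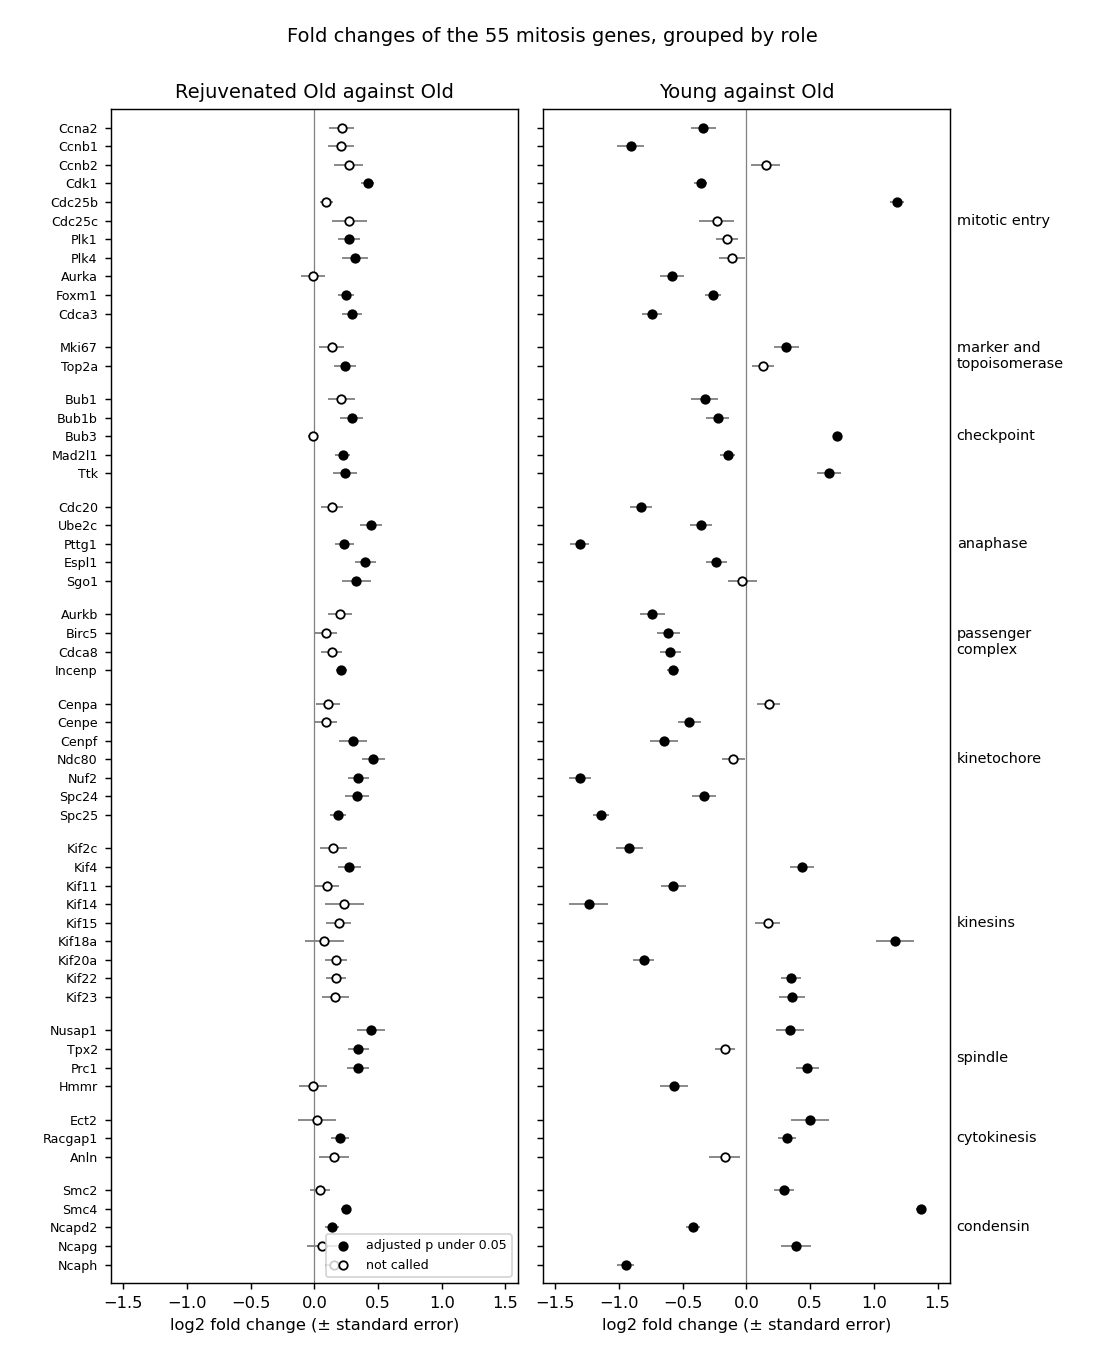
Log2 fold changes (x axis, on the log2(normalized count + 1) scale, bars are standard errors) of the 55 mitosis genes in rejuvenated old against old (left) and young against old MSCs (right), in rows grouped by role. Filled points have a limma adjusted p under 0.05. On the left 52 points lie above 0 and none exceeds 0.46, while on the right they spread from -1.31 to 1.37.

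Among the 11 genes grouped here as regulators of mitotic entry, 5 were higher in rejuvenated old than in old MSCs. Cdk1 (gene number 12534, chr10:69335146-69352912 of GRCm38.p6), the kinase that drives entry, had normalized counts of 1052 to 1232 (median 1126) in young MSCs, 1321 to 1628 (median 1434) in old MSCs and 1785 to 2059.9 (median 1982) after co-culture. Every rejuvenated old library lay above every old one, and every young library below. The log2 fold change was 0.42 (standard error 0.05, limma adjusted p = 6.35e-07) in rejuvenated old and -0.36 (standard error 0.05, limma adjusted p = 6.69e-07) in young against old MSCs. Foxm1, the transcription factor of late cell cycle genes, had 555 to 759 (median 614), 718 to 791 (median 742) and 829 to 1035 (median 878) in young, old and rejuvenated old MSCs, the order kept for other genes. Its rejuvenated old libraries were all above the old ones, with 1 young library overlapping the old range, and its fold changes were 0.25 (standard error 0.06, limma adjusted p = 0.0029) and -0.26 (standard error 0.06, limma adjusted p = 0.000577). Plk1, a kinase active from entry to cytokinesis, had 296 to 448 (median 338), 346 to 407 (median 395) and 414 to 587 (median 451). The old and rejuvenated old ranges did not overlap (0.27, standard error 0.09, limma adjusted p = 0.0165), whereas the young range spanned the old one (-0.15, standard error 0.09, limma adjusted p = 0.113). Plk4, placed in this group though it starts centriole duplication, was also higher after co-culture, by 0.32. Cdca3, which takes part in the removal of the mitosis inhibitor Wee1, was higher by 0.30.

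No mitotic cyclin was called higher after co-culture. Ccnb1 (cyclin B1, chr13:100778739-100786486) had 156 to 249 (median 180.3) in young MSCs, 309 to 405 (median 332) in old MSCs and 329 to 466 (median 399) after co-culture. Old and rejuvenated old libraries overlapped (0.21, standard error 0.10, limma adjusted p = 0.118), and all young libraries lay below all old ones (-0.91, standard error 0.10, limma adjusted p = 3.17e-08). Its transcript aligned to 4 annotated pseudogenes at 97.1% identity or more, so its reads may be split with them. In rejuvenated old against old MSCs, the values for the other members of this role without a call were 0.22 for Ccna2 (cyclin A2), 0.27 for Ccnb2 (cyclin B2), 0.27 for Cdc25c, 0.10 for Cdc25b and -0.01 for Aurka, a kinase of the spindle poles. The phosphatase Cdc25b, which activates Cdk1, was the only regulator of entry called higher in young than in old MSCs, with 978 to 1076 (median 999.8) in young MSCs, 422 to 478 (median 443) in old MSCs and 439 to 524 (median 471) after co-culture and a fold change of 1.18 (standard error 0.05, limma adjusted p = 1.21e-15). All 6 young libraries lay above all others. In this comparison 6 of the 11 were lower (Ccnb1, Cdca3, Aurka, Cdk1, Ccna2 and Foxm1), and Ccnb2, Cdc25c, Plk1 and Plk4 were not called.

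Mki67 (chr7:135689784-135716450), which encodes the Ki-67 protein of cycling cells, had 1065 to 1532 (median 1132) in young MSCs, 844 to 1167 (median 916) in old MSCs and 818 to 1273 (median 1065) after co-culture. The 3 ranges overlapped. Its fold change was 0.14 (standard error 0.10, limma adjusted p = 0.28) in rejuvenated old and 0.31 (standard error 0.10, limma adjusted p = 0.00556) in young against old MSCs. This marker was thus higher in young MSCs, where 29 of the 55 genes, and 44.1% of all genes, were lower. Relative to the median of chromosome 7 (0.61) in that comparison, it was at -0.30. Top2a, the topoisomerase that untangles mitotic chromosomes, had 1351 to 1964 (median 1452), 1235 to 1668 (median 1344) and 1430.1 to 1844 (median 1693). These ranges overlapped too, and the fold changes were 0.24 (standard error 0.09, limma adjusted p = 0.0339) and 0.13 (standard error 0.09, limma adjusted p = 0.176). The first of them was no longer called without rejuvenated old library 1 (0.21, limma adjusted p = 0.0741).

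Of the 5 genes of the spindle assembly checkpoint, 3 were higher in rejuvenated old MSCs, or 2 without library 1. Bub1b (BubR1), which binds Cdc20 to hold the APC/C inactive, had 338 to 549 (median 361) in young MSCs, 418 to 480.4 (median 456) in old MSCs and 493 to 608 (median 569) after co-culture. The rejuvenated old libraries were all above the old ones (0.29, standard error 0.09, limma adjusted p = 0.0113), and 5 of 6 young libraries were below them (-0.23, standard error 0.09, limma adjusted p = 0.0223). Mad2l1, which forms the inhibitor of Cdc20 at unattached kinetochores, changed by 0.22 (standard error 0.06, limma adjusted p = 0.00395) and -0.15 (standard error 0.06, limma adjusted p = 0.0223). Ttk (Mps1), the kinase at the head of the checkpoint, had 154 to 176 (median 161), 91.3 to 131 (median 99.4) and 100.0 to 140.0 (median 124). It overlapped between old and rejuvenated old MSCs and only just passed the threshold (0.24, standard error 0.10, limma adjusted p = 0.049), a call lost in 25 alternative settings including the edgeR test, whereas all young libraries lay above all old ones (0.65, standard error 0.10, limma adjusted p = 1.56e-06). Bub1, the kinetochore kinase, had 179.6 to 264 (median 200.4), 218 to 331 (median 262) and 264 to 358 (median 298). It was not called after co-culture (0.21, standard error 0.11, limma adjusted p = 0.121) and was lower in young MSCs (-0.33, standard error 0.11, limma adjusted p = 0.00728). Bub3 (chr7:131560367-131571895), which carries Bub1 and Bub1b to the kinetochore, went the other way from both of these partners. It had 2442 to 2614 (median 2513) in young MSCs, 1507 to 1563 (median 1543) in old MSCs and 1391 to 1632 (median 1569.6) after co-culture, and the narrow old and rejuvenated old ranges overlapped (-0.01, standard error 0.04, limma adjusted p = 0.801) far below the young one (0.71, standard error 0.04, limma adjusted p = 1.19e-14).

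Of the 5 genes of the anaphase trigger and of cohesion, 4 were higher after co-culture (3 without library 1) and 4 were lower in young MSCs. Ube2c (chr2:164769929-164772902), the ubiquitin-conjugating enzyme of the APC/C, had 400.0 to 629 (median 477) in young MSCs, 562 to 685 (median 622) in old MSCs and 671 to 968 (median 869.9) after co-culture. All but the lowest rejuvenated old library lay above the old range (0.44, standard error 0.09, limma adjusted p = 0.000311), and all but the highest young library lay below it (-0.36, standard error 0.09, limma adjusted p = 0.000678). Pttg1 (securin, chr11:43420244-43427463), the inhibitor of separase, had 421 to 556 (median 451), 1094 to 1297 (median 1164) and 1231 to 1615 (median 1363). Its young libraries held less than any other by a wide margin (-1.31, standard error 0.07, limma adjusted p = 9.59e-14), the lowest fold change of the 55, and 4 of 6 rejuvenated old libraries exceeded the old range (0.23, standard error 0.07, limma adjusted p = 0.0142). Espl1 (separase) rose by 0.40, from 277 to 323 (median 294) in old MSCs to 345 to 445 (median 384) after co-culture with no overlap, and was lower in young MSCs (-0.24). Sgo1, which protects centromeric cohesin, was higher after co-culture by 0.33 and was not called in young MSCs (-0.03). Cdc20, the APC/C activator, was not called after co-culture (0.14, standard error 0.09, limma adjusted p = 0.212), with 719.9 to 883 (median 860.1) in old and 743 to 994 (median 943) in rejuvenated old MSCs. Of its rejuvenated old libraries 5 lay above the old range and library 6 near its bottom. In young MSCs it ran from 374 to 601 (median 465), below every old library (-0.83, standard error 0.09, limma adjusted p = 5.02e-09).

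All 4 genes of the chromosomal passenger complex, which corrects faulty attachments, were lower in young than in old MSCs, from -0.74 (Aurkb) to -0.58 (Incenp), with Birc5 (survivin) at -0.61 and Cdca8 (borealin) at -0.60. No young library of any of the 4 reached the old range. Incenp, the scaffold of the complex, had 779.9 to 892 (median 842) in young MSCs, 1111 to 1355 (median 1268) in old MSCs and 1391 to 1522 (median 1455) after co-culture. It was the only one of the 4 called after co-culture (0.21, standard error 0.05, limma adjusted p = 0.000709), with every rejuvenated old library above every old one. Aurkb, its kinase, had 148 to 229 (median 177), 284 to 345 (median 298) and 286 to 422 (median 352) and missed the threshold (0.20, standard error 0.10, limma adjusted p = 0.0933), as did Cdca8 (0.14) and Birc5 (0.09).

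Of the 7 centromere and kinetochore genes, 5 were higher in rejuvenated old than in old MSCs (4 without library 1) and none was lower. The Ndc80 complex, which grips microtubules, has 4 subunits, and all 4 were higher after co-culture. Ndc80 itself (chr17:71496100-71526857) had 187 to 272 (median 192) in young MSCs, 184 to 244 (median 225) in old MSCs and 274 to 320.4 (median 304) after co-culture. The rejuvenated old range lay wholly above the old one, with the highest fold change of the 55 (0.46, standard error 0.09, limma adjusted p = 0.000262). Nuf2 (chr1:169497934-169531464) had 129 to 163 (median 146), 293 to 438 (median 362) and 433 to 485 (median 457), and rose by 0.35 (standard error 0.09, limma adjusted p = 0.00255). Spc24 and Spc25 were higher by 0.33 and 0.19. In young against old MSCs, Nuf2 was lower (-1.30, standard error 0.09, limma adjusted p = 1.82e-12), as were Spc25 (-1.14) and Spc24 (-0.34), and Ndc80 was not called (-0.10, standard error 0.09, limma adjusted p = 0.279). Young library 6 held the only Ndc80 value above 200 in its group, and without it Ndc80 was called lower (-0.19, limma adjusted p = 0.0245). Cenpf, a large protein of the outer kinetochore, had 177 to 287 (median 208), 299 to 392 (median 349) and 358 to 505 (median 452), with fold changes of 0.30 (standard error 0.11, limma adjusted p = 0.028) and -0.65 (standard error 0.11, limma adjusted p = 8.23e-06). The first was not called without rejuvenated old library 1 (0.28, limma adjusted p = 0.0541). The motor Cenpe and the centromeric histone Cenpa were not called after co-culture (0.09 and 0.11). In young MSCs Cenpe was lower (-0.45) and Cenpa was not called (0.17).

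**Figure D2:**
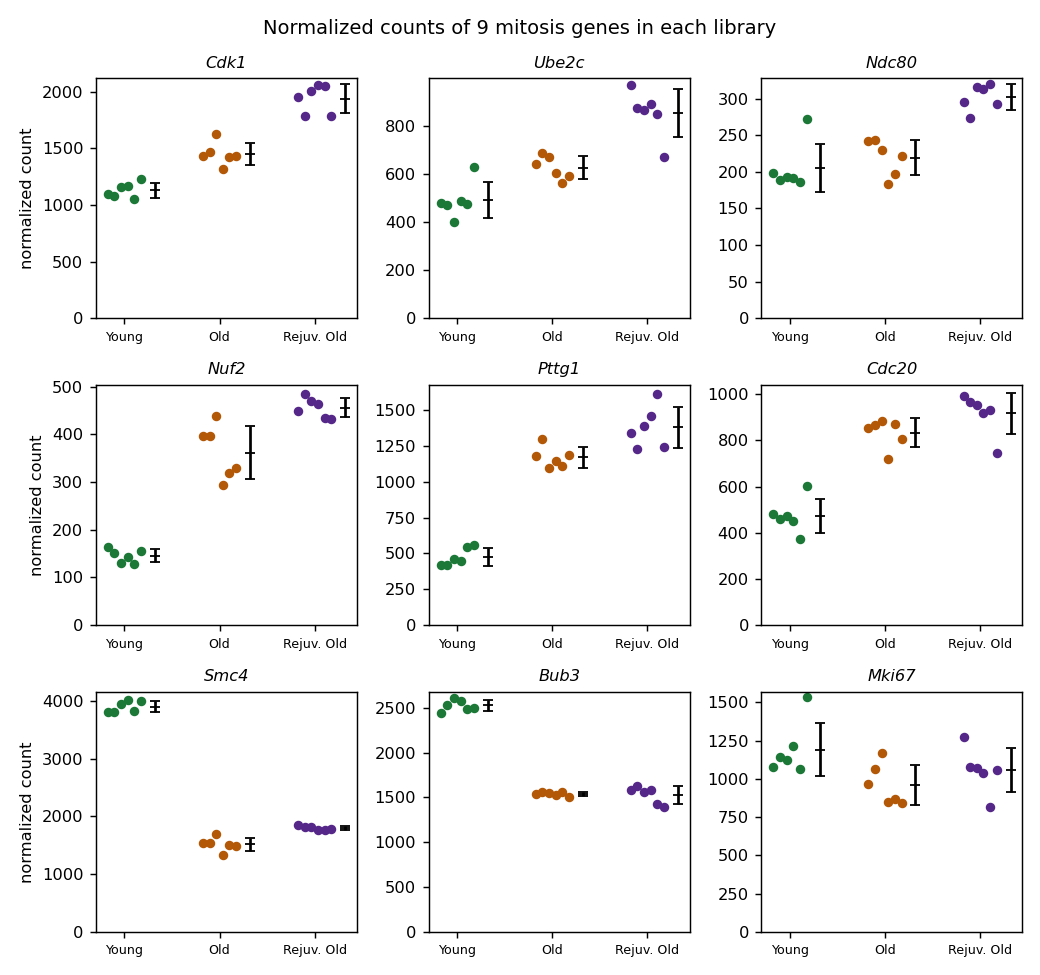
Normalized counts (y axis, from 0) of 9 mitosis genes in each library (points) of young, old and rejuvenated old MSCs, with the mean and SD of the 6 libraries beside each group. Cdk1, Ndc80 and Smc4 show no overlap between old and rejuvenated old MSCs, Pttg1, Nuf2 and Cdc20 are lower in young MSCs, and Smc4 and Bub3 are higher there.

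Of the 9 mitotic kinesins, 1 was called after co-culture (0 without library 1), below the 21.0% of all genes, and in young MSCs 4 were higher and 4 lower, near the 41.6% and 44.1% of all genes. In rejuvenated old against old MSCs only Kif4, a chromosome-bound motor, was called (0.28, standard error 0.09, limma adjusted p = 0.0203), with 282 to 394 (median 348) in old and 359 to 477 (median 421) in rejuvenated old MSCs, and this call was lost without rejuvenated old library 1 (0.23, limma adjusted p = 0.0505). The other 8 had fold changes from 0.08 to 0.24. In young MSCs 4 kinesins were higher than in old MSCs, namely Kif18a, which limits chromosome movement at the metaphase plate (1.17), Kif4 (0.44), Kif23 of the midzone (0.36) and Kif22 (0.35). The 4 that were lower were Kif14, which acts in cytokinesis (-1.24), the microtubule depolymerase Kif2c (-0.92), the cytokinesis motor Kif20a (-0.81) and Kif11 (-0.58). Kif11 (Eg5), which pushes the spindle poles apart, had 229 to 325 (median 278) in young MSCs, 362 to 483 (median 401) in old MSCs and 388 to 541 (median 414) after co-culture, with its young libraries below all others. Kif14 was low throughout, at 32.6 to 74.1 (median 54.2), 109.7 to 139 (median 118) and 123 to 169 (median 138). Kif15 was not called in either comparison.

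Of the 4 spindle assembly factors, 3 were higher in rejuvenated old MSCs. Nusap1, which bundles spindle microtubules, had 256 to 337 (median 291) in young MSCs, 183 to 298 (median 229) in old MSCs and 278 to 354 (median 307) after co-culture. The old and rejuvenated old ranges met only at their ends (0.44, standard error 0.11, limma adjusted p = 0.00242), and young MSCs were also higher than old (0.34, standard error 0.11, limma adjusted p = 0.00636). Tpx2, an activator of Aurka, rose by 0.35 (standard error 0.08, limma adjusted p = 0.00139) and Prc1, which bundles the midzone, by 0.34 (standard error 0.09, limma adjusted p = 0.0037). Against old MSCs, young MSCs had more Prc1 (0.48), while Tpx2 was not called (-0.17). Hmmr, which helps to hold spindle poles together, had 177 to 306 (median 208), 295 to 399.7 (median 316) and 286 to 397 (median 314). No rejuvenated old library exceeded the old range (-0.01, standard error 0.11, limma adjusted p = 0.951), and 5 of 6 young ones lay below it (-0.57, standard error 0.11, limma adjusted p = 5.68e-05).

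Of the 3 genes of cytokinesis, 1 was called after co-culture, or 0 without library 1. Racgap1, which with Kif23 forms centralspindlin, had 923 to 1203 (median 1003) in young MSCs, 750.4 to 919 (median 809) in old MSCs and 808 to 1103 (median 923) after co-culture. Its call in rejuvenated old MSCs (0.20, standard error 0.07, limma adjusted p = 0.0302) was lost without library 1 (0.15, limma adjusted p = 0.0814), and every young library was above the old ones (0.32, standard error 0.07, limma adjusted p = 0.000304). Ect2, the exchange factor that Racgap1 binds, had 215 to 329.5 (median 241), 141 to 229 (median 179) and 126 to 266 (median 174). The widely spread rejuvenated old libraries covered the old range (0.02, standard error 0.15, limma adjusted p = 0.923), and young MSCs were higher (0.50, standard error 0.15, limma adjusted p = 0.0036). Anln (anillin) was not called in either comparison (0.15 and -0.17).

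Of the 5 condensin subunits, 3 were higher and 2 lower in young than in old MSCs, and 2 were higher after co-culture (1 without library 1). Smc4 (chr3:69004738-69034623), one of its core ATPases, had 3804 to 4019 (median 3886) in young MSCs, 1337 to 1691 (median 1521) in old MSCs and 1761 to 1842 (median 1799) after co-culture. The 3 groups did not overlap, with the highest fold change of the 55 in young against old MSCs (1.37, standard error 0.04, limma adjusted p = 2.14e-19) and a smaller one after co-culture (0.25, standard error 0.04, limma adjusted p = 2.28e-05). The partner ATPase Smc2 was higher in young MSCs by 0.29 and was not called after co-culture (0.05). Ncapd2 and Ncaph, regulatory subunits of condensin I, were lower in young MSCs. Ncaph had 259 to 356 (median 308), 526 to 655 (median 598) and 600.0 to 698 (median 667), so that all young libraries were far below the others (-0.95, standard error 0.07, limma adjusted p = 8.04e-12), and was not called after co-culture (0.15, standard error 0.07, limma adjusted p = 0.0803). Ncapd2 had 951 to 1204 (median 1059), 1328 to 1559 (median 1393) and 1445 to 1705 (median 1525), with fold changes of 0.14 (standard error 0.05, limma adjusted p = 0.0439) and -0.42 (standard error 0.05, limma adjusted p = 2.1e-07). The first was lost without rejuvenated old library 1 (0.11, limma adjusted p = 0.107). The third regulatory subunit, Ncapg, was higher in young MSCs (0.39) and not called after co-culture (0.06).

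**Figure D3:**
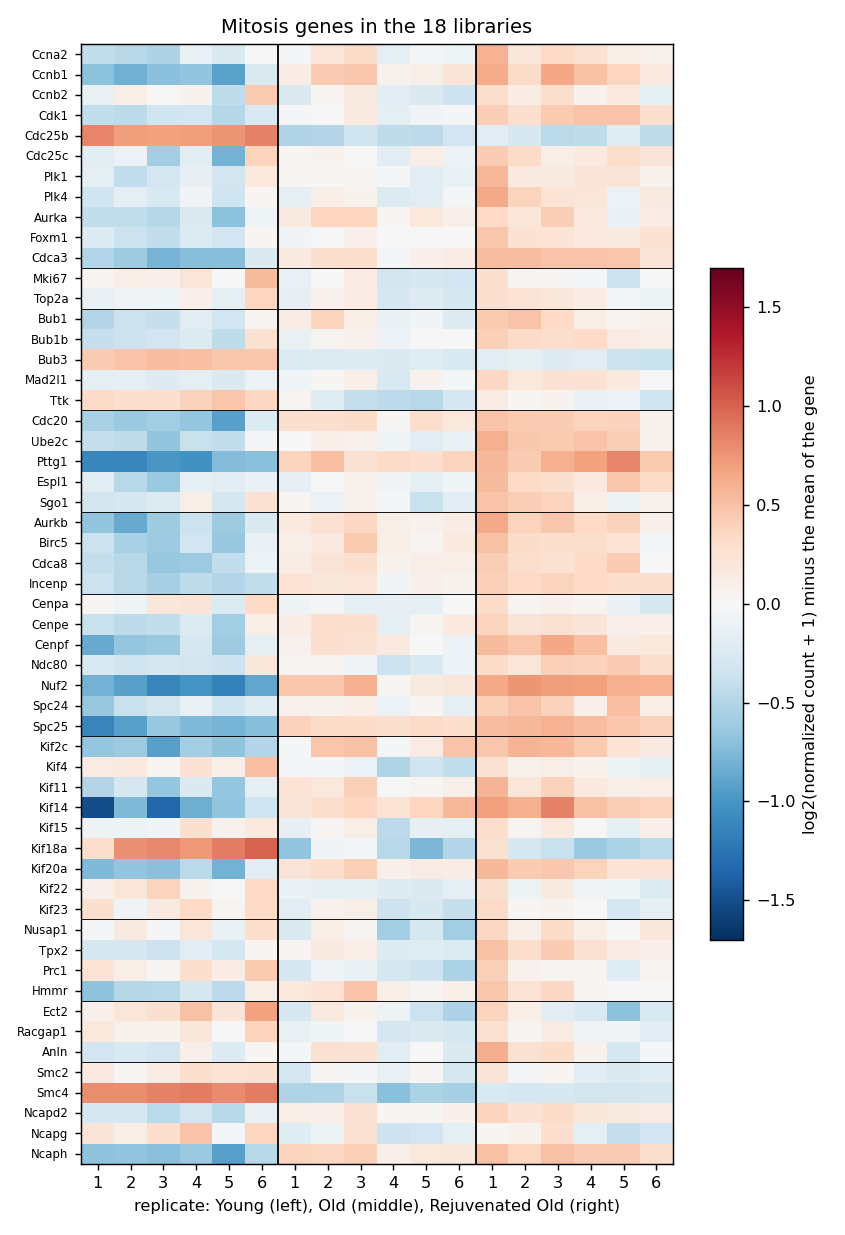
Level of each of the 55 genes (rows, grouped by role between the lines) in each of the 18 libraries (columns), as log2(normalized count + 1) minus the mean of the gene. Most rows are blue in young and red in rejuvenated old MSCs, Smc4, Bub3, Cdc25b and Kif18a are red in young MSCs, and young library 6 and rejuvenated old library 1 are redder than the rest of their groups.

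Young library 6 and rejuvenated old library 1 had the highest mean member level of their groups. The mean level of the 55 genes in a library, taken as the mean difference of log2(normalized count + 1) from each gene's own mean, ran from -0.30 to 0.07 in young MSCs, -0.13 to 0.14 in old MSCs and 0.04 to 0.39 after co-culture. In old MSCs library 3 was highest, and the ranges of old and rejuvenated old libraries overlapped. After each group's mean was removed, the deviation of a member correlated with the mean deviation of the other 54 with a median Pearson r of 0.77 (Spearman rho 0.76) over the 18 libraries, from 0.18 for Pttg1 to 0.96, and 36 members had an r above 0.7. Without young library 6 and rejuvenated old library 1 the median was 0.71, 28 members had an r above 0.7 and the lowest was -0.14, for Cdc25b. The r was taken over the 3 groups together and not within each. All genes of a library share its scaling and depth, so the r is a description only. Pttg1 and Cdc25b, both far apart between young and old MSCs, followed the other members least (0.18 and 0.24). Without both libraries, 23 members were higher in rejuvenated old than in old MSCs and 0 lower, and 15 were higher and 33 lower in young MSCs. Both were left out because of their level of these same genes, so these counts are no independent check, and no share of all genes is given for them. Leaving out young library 6 does not alter the fold changes of rejuvenated old against old MSCs, only the estimate of the spread. Without rejuvenated old library 1 alone, 19 were called higher.

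**Figure D4:**
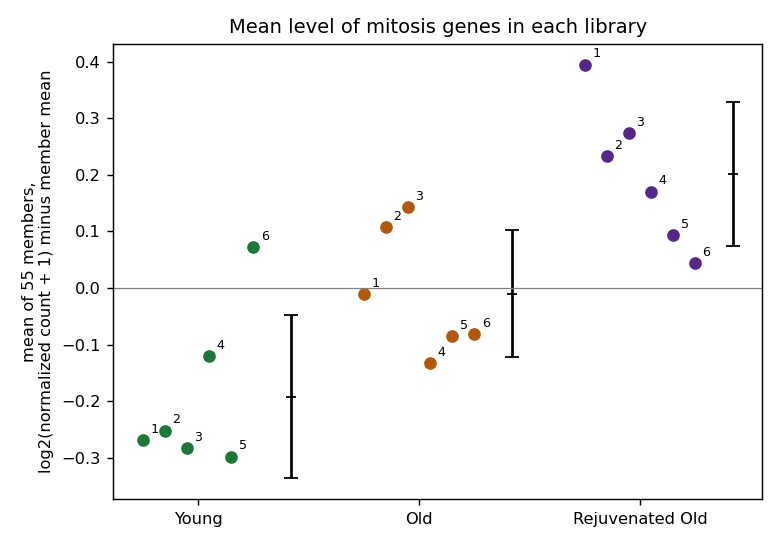
Mean level of the 55 mitosis genes (y axis, mean of log2(normalized count + 1) minus each gene's mean over all libraries) in each of the 18 libraries, numbered by replicate, with the mean and SD of each group (n = 6) beside it. Rejuvenated old libraries lie at 0.04 to 0.39, and old libraries at -0.13 to 0.14, so both ranges overlap.

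Chromosomes 1, 7, 12 and 16 had the medians farthest from 0 in young against old MSCs. The median fold change of all genes tested on chromosome 1 was -0.69, and its 3 members, Kif14, Nuf2 and Cenpf, were all lower in young MSCs. On chromosome 7 the median was 0.61, and Prc1, Kif22, Bub3 and Mki67 were higher there, with Plk1 not called. Chromosomes 12 and 16 shifted by -0.46 and -0.75 and held no member. With the 3 members of chromosome 1 and the 5 of chromosome 7 left out, 11 members were higher in young than in old MSCs and 26 lower. No share of all genes off these 4 chromosomes is given, so these counts have no background beside them. Relative to the median of its own chromosome, Mki67 was at -0.30 and Bub3 at 0.10, and Nuf2 at -0.61, on the log2 scale. The members' median on that scale was -0.26. In rejuvenated old against old MSCs the chromosome medians lay between -0.04 and 0.06, and the members' median relative to them was 0.20.

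**Figure D5:**
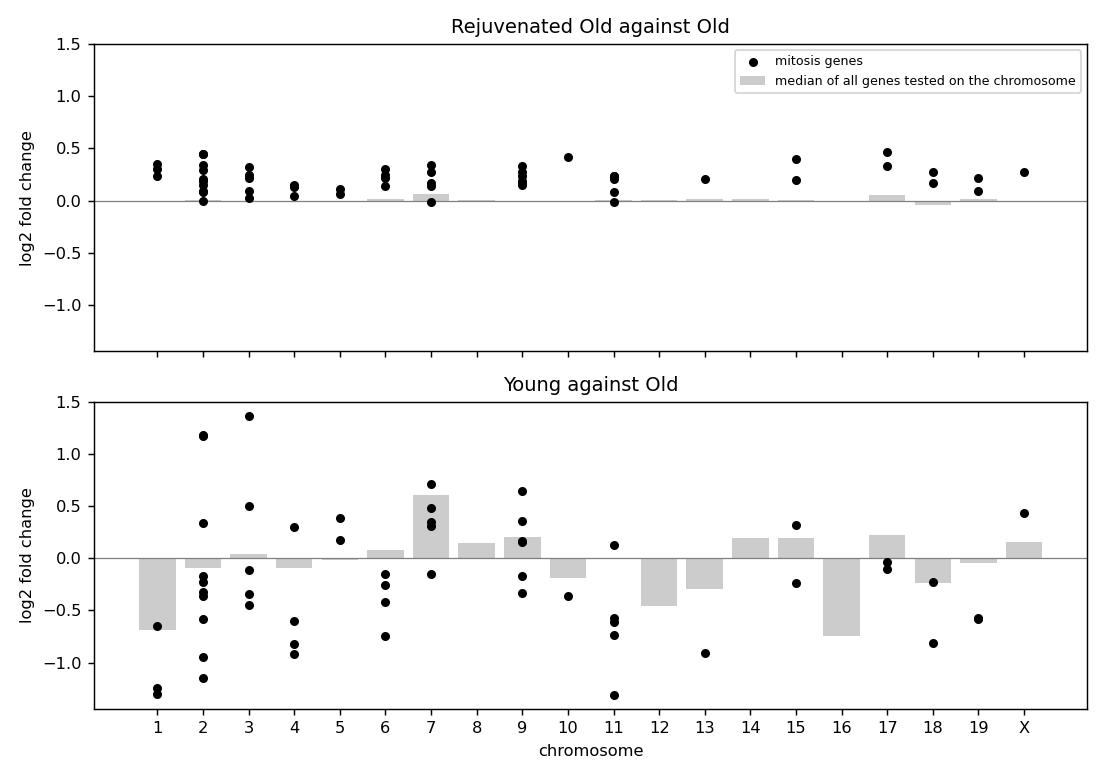
Log2 fold change (y axis) of each mitosis gene (points) on its chromosome (x axis) in rejuvenated old against old (top) and young against old MSCs (bottom), with bars for the median of all genes tested on that chromosome. In the bottom panel the bars of chromosomes 1, 7, 12 and 16 stand at -0.69, 0.61, -0.46 and -0.75, and the top bars stay within -0.04 to 0.06.

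Most promoters of the members held letters that a smaller share of all promoters hold. RefSeq windows of 300 bases, from 250 before to 50 after the start of transcription (GRCm38.p6), were on hand for 46 of the 55 genes, in 49 windows. The CHR letters TTTGAA stood on either strand in 36 of the 49 (73.5%), against 12.1% of the 13922 windows of genes tested and 17.9% of all windows. CCAAT stood in 75.5% against 37.6%, and both together in 65.3% against 4.79%. The variant TTCGAA stood in 10.2% against 2.05%. A match is a run of letters and not a measured binding site. With all libraries, 15 of the 33 genes with TTTGAA and 6 of the 13 without it were called higher after co-culture, where 21.0% of all genes were. The median fold changes were 0.19 and 0.21. The calls lost without rejuvenated old library 1 were mostly of genes with TTTGAA (Top2a, Ttk, Cenpf, Kif4, Racgap1 and Ncapd2), and Sgo1 was without it. In young against old MSCs 11 of the 33 were higher and 15 lower, and 3 of the 13 were higher and 8 lower, where 41.6% of all genes were higher and 44.1% lower. Shares of all genes with and without TTTGAA are not given. To show these letters in place, the 120 bases before and 20 after the start are given for 2 genes higher after co-culture and lower in young MSCs (Cdk1, on the minus strand at chr10:69352893-69353032, and Ube2c, on the plus strand at chr2:164769809-164769948), for Cdc20 (minus strand, chr4:118437324-118437463), which was lower in young MSCs only, and for Bub3 (plus strand, chr7:131560250-131560389), which was higher there. Capitals mark TTTGAA and CCAAT on either strand (TTCAAA and ATTGG on the other).
Cdk1: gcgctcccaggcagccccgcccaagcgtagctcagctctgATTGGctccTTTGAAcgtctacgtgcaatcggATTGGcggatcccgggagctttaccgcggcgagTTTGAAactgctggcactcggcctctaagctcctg
Ube2c: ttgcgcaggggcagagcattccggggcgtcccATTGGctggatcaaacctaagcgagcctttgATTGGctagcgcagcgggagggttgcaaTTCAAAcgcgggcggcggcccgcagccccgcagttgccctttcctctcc
Cdc20: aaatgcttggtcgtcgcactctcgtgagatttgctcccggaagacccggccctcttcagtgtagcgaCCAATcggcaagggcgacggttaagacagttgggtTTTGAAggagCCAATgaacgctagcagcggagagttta
Bub3: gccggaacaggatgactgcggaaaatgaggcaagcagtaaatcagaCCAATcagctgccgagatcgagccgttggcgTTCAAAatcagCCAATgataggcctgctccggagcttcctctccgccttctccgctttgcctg
All 4 carry both sets of letters in the stretch shown, as 63.0% of the 46 members do in any window. Where a gene had more than 1 window, the one with the most kinds of letters in this stretch was shown. This was so for Bub3. In its other window TTTGAA stood at -167 and CCAAT at -198 and -156 from the start, outside the 120 bases. The level of Bub3 did not follow that of Cdk1 or Ube2c, and any link between letters and level was not tested.

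Genes around these members were given by lists, whose counts are read against the 21.0% and 20.6% of all genes called higher and lower after co-culture and the 41.6% and 44.1% in young against old MSCs. Of 56 other mitotic genes, 27 were higher in rejuvenated old than in old MSCs (48.2%, and 23 without library 1) and 1 lower, with a median of 0.24. The highest were Cenpm (0.57) and Cenpp (0.51), both of the centromere, and the 1 that fell was Zwint (-0.20), a kinetochore protein. In young against old MSCs 5 were higher and 31 lower (median -0.33), with Bora, an activator of Aurka, highest (0.56). The lowest were Psrc1 (-5.86, medians of 79.9 in young MSCs, 4902 in old MSCs and 4835 after co-culture) and Gtse1 (-4.26), which are also known as p53 target genes. Of 25 replication genes, which act in the phase before, 14 were higher after co-culture (56.0%, and 12 without library 1) and 0 lower (median 0.17), led by Gmnn (0.48) and Cdc6 (0.42). In young against old MSCs 7 were higher, 11 lower and 7 not called (median -0.10), from -4.10 for the ribonucleotide reductase subunit Rrm2 to 1.40 for the licensing factor Cdt1. Among 15 APC/C genes 3 were higher after co-culture (20.0%, and 5 without library 1) and 0 lower, and in young MSCs 6 were higher and 6 lower, near the shares of all genes but for the 0.

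Cohesin genes were lower after co-culture and higher in young MSCs where they were called. Of its 10 genes, 0 were higher and 3 lower after co-culture, namely Nipbl (-0.19), Smc1a (-0.13) and Stag2 (-0.13), and 8 were higher and 0 lower in young MSCs (median 0.56), with Rad21 at 0.82. The 3 of 10 lower stand against 20.6% of all genes. Of 19 regulators of the E2F, RB and MuvB group, 2 were higher and 2 lower after co-culture (each below the shares of all genes), and 4 were higher and 12 lower in young MSCs, from -1.51 for E2f7 and -1.22 for Rb1 to 0.85 for Lin37. Of 8 G1 cyclins and CDKs, 2 were higher (25.0%) and 1 lower (12.5%) after co-culture, the latter Ccnd2 (-0.25), and in young MSCs 0 were higher and 7 lower (median -0.87). Of 12 CDK inhibitors and p53 arrest genes, 4 were higher after co-culture (33.3%) and 5 lower (41.7%, and 4 genes without library 1), with Cdkn2b, an inhibitor of Cdk4 and Cdk6, lowest (-0.43). In young MSCs 5 of them were higher and 7 lower, with log2 fold changes against old MSCs from -3.60 to 7.78. Those of the members, from -1.31 to 1.37, were far smaller in both directions. Those of the other mitotic genes ran from -5.86 to 0.56, so they reached lower than this list. The CDK inhibitor Cdkn1c had normalized counts of 385 to 429 in young MSCs, 0 to 2.15 in old MSCs and 0 to 8.24 after co-culture, and Gadd45a, a stress-induced arrest gene, was higher in young MSCs by 2.53. The p53 targets Ccng1 and Cdkn1a were lower there by large amounts (-3.60 and -2.90), and Cdkn1a, which blocks CDKs, had medians of 2375 in young MSCs, 17706 in old MSCs and 19053 after co-culture.

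Reads of some members may be shared with overlapping genes, since the strand setting of the counting was not stated. Exons on the opposite strand cover 29.3% of the exon bases of Kif20a (Cdc23), 22.8% of Ube2c (Tnnc2) and 15.1% of Kif4 (Pdzd11). They cover 13.4% of Ncapg (Lcorl), 12.7% of Cdc25c (Gm3550), 12.5% of Ccna2 (Exosc9) and 11.1% of Prc1 (Rccd1). The share of bases is not the share of reads, which also depends on the level of the other gene. Mean normalized counts were 2607 for Pdzd11 against 408 for Kif4, and 297 for Rccd1 against 573 for Prc1. How far the values of these genes are affected was not measured. Processed pseudogenes of at least 95% identity were annotated for Cdc20, Mad2l1, Plk4, Racgap1 and Ube2c as well as Ccnb1.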

How the data were processed

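RNA-seq libraries of 18 MSC cultures in 3 groups of 6 were analysed. According to the paper, the authors aligned reads to mm10 with HISAT2 and used StringTie, featureCounts and DESeq2 for counting and normalization. Versions, annotation and strand setting were not given in the sources used here. Each deposited value is a signal, the reads of a gene divided by the size factor of its library, with replicates kept apart. Whole reads were recovered by undoing the size factors, and 100% of values came out whole within 0.01 of a read. Depth was 22936251 to 29559194 reads per library.

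Genes with a mean of at least 10 were tested as log2(value + 1) with limma 3.58.1 (R 4.3.3) in 1 fit of the 3 groups with a trended prior variance, and p-values were Benjamini-Hochberg adjusted over all 14353 genes. A fold change is the difference between means on that scale, which understates changes of low genes. A gene was called at an adjusted p under 0.05. edgeR 4.0.16 and DESeq2 1.42.0 on recovered reads, other scalings, pseudocounts and filters, the replicate block and leaving out each library were alternatives. The fit was tested on simulated data.

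The members and lists were chosen with earlier results of these data known. Named with full values were 12 genes set by name and, in each role, the called member with the largest change in either comparison with old MSCs, plus members called against their role. Of each pathway list at most 4 extremes were to be named. Genes named beyond this rule (the other members and the cell type markers) were chosen after their values were seen. Positions, promoters and overlaps came from RefSeq (GRCm38.p6) and GENCODE M21. Pseudogenes were found with minimap2 2.31-r1302. Protein sequences were not used here.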

Additional observations from a re-analysis of the deposited data

Results flagged for a closer look

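In 8 of the 90 sets of 6 libraries examined (29 named genes and the mean member level, in each group), the highest or lowest library stood apart from its nearest neighbour by more of the group's range than Dixon's 95% critical value. Chance flags about 1 in 20, or 4.5 of 90. The sets come from the same libraries and are not independent, so this is no test of an excess. In young MSCs library 6 was highest each time, with normalized counts of 249 for Ccnb1 (156 to 184 in the other 5), 1532 for Mki67 (1065 to 1214), 549 for Bub1b (338 to 388) and 272 for Ndc80 (187 to 199). Library 1 of rejuvenated old MSCs was highest for Plk1, at 587 (414 to 463), and Foxm1, at 1035 (829 to 884). Cdc20 was lowest in rejuvenated old library 6, at 743 (918 to 994), and Ncapd2 highest in old library 3, at 1559 (1328 to 1409.7). Young library 6 and rejuvenated old library 1 also had the highest mean member level of their groups.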

How the results depend on the processing

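Most counts of the members stayed within 1.5 times their value under the alternatives. At an adjusted p under 0.01, 14 members were higher in rejuvenated old than in old MSCs. At an adjusted p under 0.05 and a fold change of at least 1 on the log2 scale, 0 were higher in rejuvenated old than in old MSCs. At these limits 3 were higher and 4 lower in young than in old MSCs, and 3 were higher and 8 lower in young than in rejuvenated old MSCs. The shares of all genes at these limits and at 0.01 are not given here. In young against old MSCs the median absolute fold change was 0.42 for the members and 0.60 for all genes. With every library scaled to the same total, 14 were higher in young than in rejuvenated old MSCs. Leaving out each library in turn gave 19 to 31 members higher in rejuvenated old than in old MSCs and 0 lower, 15 to 17 higher and 27 to 33 lower in young than in old MSCs, and 8 to 13 higher and 36 to 37 lower in young than in rejuvenated old MSCs. Among the named genes, 3 uncalled fold changes of rejuvenated old against old MSCs changed sign. These were Bub3 (-0.0327 to 0.0133 with each library left out), Hmmr (-0.0686 to 0.0476) and Ect2 (-0.0850 to 0.13, -0.00535 with quantile normalization, and -0.0850 without both young library 6 and rejuvenated old library 1, an alternative chosen after seeing the data). In rejuvenated old against old MSCs, Ttk lost its call in 25 settings, Ncapd2 in 14, Top2a in 13, Racgap1 in 10, Cenpf in 8 and Kif4 in 5. Bub1b lost its call in young against old MSCs in 7, and without young library 6 Plk1 was called lower there (-0.22, limma adjusted p = 0.0108).

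Libraries of the same number did not deviate together (r from -0.15 to 0.07 over 18 pairs). Whether the numbers mark a shared origin was not tested. With the replicate block 25 members were higher in rejuvenated old than in old MSCs, 15 were higher and 29 lower in young than in old MSCs, and 9 were higher and 36 lower in young than in rejuvenated old MSCs.

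The fold changes after co-culture are near the spread between libraries, so calls near the threshold depend on single libraries. No counts of cells, DNA content or division were analysed here, and the groups differ in macrophage markers, whose part was not tested.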

Other observations

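Summed over the 55 genes, the members made up 0.110% to 0.137% of all normalized counts in young MSCs, 0.104% to 0.126% in old MSCs and 0.119% to 0.148% after co-culture. The median of this sum was lowest in old MSCs (0.112%) and that of the mean log level in young MSCs (-0.26). Smc4 and Bub3, which were higher in young MSCs, enter the sum with their full counts. The spread between libraries over all genes, as a biological coefficient of variation, was 5.37% for young MSCs, 7.05% for old MSCs and 8.18% after co-culture.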
